A study of Mus musculus with 5 samples.

Results

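MHC class I molecules were followed here through 10 mouse genes, H2-K1, H2-D1, H2-Bl, H2-Q10, H2-T23, H2-T10, B2m, Tap1, Tap2 and Tapbp. Members were all probe sets on the array whose annotated gene symbols included one of these genes, and also those shared by several H2 class I genes. Of the 18193 genes on the array with a probe set of their own, 8 were members. The rule gave 36 of the 45101 probe sets, of which 24 carried 1 symbol and 12 carried several, 4 of these naming H2 class I genes outside the list alone. H2-T23 and H2-T10 had no probe set of their own: H2-T23 shared both of its probe sets with H2-T-ps, and H2-T10 shared both of its own with H2-T9 and H2-T22. A probe set that carries several symbols is given below with all of them, since its signal cannot be divided among the genes.

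Liver RNA of 5 inbred mouse strains was compared as a follow-up of a mapped expression QTL, a locus linked to a gene's RNA level. The strains were RIIIS/J, NZW/LacJ, FVB/NJ, BALB/CByJ and C57BL/6J, all untreated males aged 10 weeks. Where values are listed without strain names, their order is C57BL/6J first, then BALB/CByJ, then FVB/NJ, then NZW/LacJ, and RIIIS/J last. Each strain had 1 array, hybridised with RNA pooled from 3 animals, so no value has a replicate error, no test between strains is possible, and neighbouring strains in any order of levels cannot be separated by their spread. The values are intensities, the normalised brightness of a probe set on a linear scale, and levels of different probe sets are not comparable with each other.

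A class I molecule is a polymorphic heavy chain bound to the light chain beta-2-microglobulin, and it shows peptides from inside the cell to CD8 T cells and NK cells. The peptides are cut by the proteasome, pumped into the endoplasmic reticulum by the transporter Tap1/Tap2 and loaded with the help of tapasin, the product of Tapbp. H2-K1 and H2-D1 encode the classical heavy chains of the mouse, whereas the genes of the Q and T regions encode nonclassical chains, among them H2-Q10, a soluble class I protein that the liver secretes. The heavy chain genes are among the most variable of the mouse. As general background, not read from these data, C57BL/6J carries the b haplotype of H2, BALB/CByJ d, FVB/NJ q, NZW/LacJ z and RIIIS/J r, and the d haplotype carries an H2-L gene next to H2-D1 that the b haplotype lacks. A probe designed on one allele can bind another allele less well, so a heavy chain probe set can read the allele as well as the amount of RNA; the probe sequences were not used here.

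Receptor genes of smell and taste, which liver should lack, gave a detection floor: 95% of the values of their 86 probe sets lay under an intensity of 8.41. Of the 36 member probe sets, 30 exceeded it somewhere and 26 on all 5 arrays. The 6 that stayed under it on every array were 3 of the 4 Tap1 probe sets, 1451934_at of H2-D1, 1419658_at of H2-T-ps and H2-T23, and 1452547_s_at of H2-T3 and H2-T18. For ratios, the floor stood in for any lower value, and a ratio against such a value is written as "at least". Of 6 hepatocyte markers none was called apart: Alb read 63746 to 74714 and Ttr 59490.1 to 67939, and Tat had the widest range, from 5871.5 in NZW/LacJ to 10049.8 in RIIIS/J. B cell markers set FVB/NJ apart: 4 of the 5 measured genes were detected, and the summed intensity of all 5 was 19650.3 there against 48.3 to 301 elsewhere. Cd79a and Ms4a1, which define B cells, were under the floor in each of the other strains. Cd79b and Ighm were called higher in FVB/NJ too, where 5.98% of all detected genes were, and Ighm was called lower in NZW/LacJ. The remaining measured gene, Pax5, was under the floor on every array. The 8 T and NK cell markers summed to 371 in FVB/NJ against 54.4 to 55.4. There 6 of them were called higher, namely Cd3d, Cd3g, Cd4, Nkg7, Gzma and Ccl5, against 5.98% of all detected genes. Cd3e (11.6 in FVB/NJ against 9.54 to 9.89) and Cd8a (14.1 to 14.2) were not called. Of 8 Kupffer cell and macrophage markers, Marco, Timd4 and Lyz2 were called higher in FVB/NJ, with Marco at 171.6 there and under the floor elsewhere. Of 4 detected stellate cell and fibroblast markers, Acta2 (823 against 58.1 to 77.9) and Vim (1251 against 312 to 535) were called higher there, as was the erythroid gene Slc4a1 (1096 against 12.98 to 13.3). Less RNA per cell and fewer cells of a type cannot be told apart in these whole-liver samples.

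Heavy chain probe sets often read lowest in RIIIS/J and, with shared probe sets counted, highest in C57BL/6J, while the light chain gene was level. Of the 24 detected heavy chain probe sets, 12 had their lowest value in RIIIS/J, where 20.1% of all 25171 detected probe sets did. The numbers with their lowest value in the other strains were 0 for C57BL/6J (11.1% of all detected probe sets), 2 for BALB/CByJ (14.4%), 5 for FVB/NJ (26.2%) and 2 for NZW/LacJ (15.5%). The remaining 3 had several strains together at the floor. The highest value lay in C57BL/6J for 12 of the 24 (19.6% of all detected probe sets), in BALB/CByJ for 3 (19.7%), in FVB/NJ for 6 (23.2%), in NZW/LacJ for 2 (17.1%) and in RIIIS/J for 1 (19.1%). Many of these probe sets read the same few genes, so they are not 24 separate observations. On 1450170_x_at, 1422348_at, 1439121_at and 1449875_s_at the C57BL/6J value was highest by only 1.01-fold to 1.02-fold. Among the 14 heavy chain probe sets with 1 symbol, 4 were highest in C57BL/6J, 4 in FVB/NJ, and 9 were lowest in RIIIS/J. Over these 14 the median log2 difference from the mean of the other strains was 0.12 in C57BL/6J and 0.46 in FVB/NJ. Over the 20 heavy chain probe sets above the floor on every array, the median difference of RIIIS/J from the mean of the other 4 strains was -1.25 on the log2 scale, against -0.011 over all detected probe sets. The same median was 0.35 in C57BL/6J, 0.25 in FVB/NJ, 0.0020 in NZW/LacJ and -0.06 in BALB/CByJ.

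**Figure D1:**
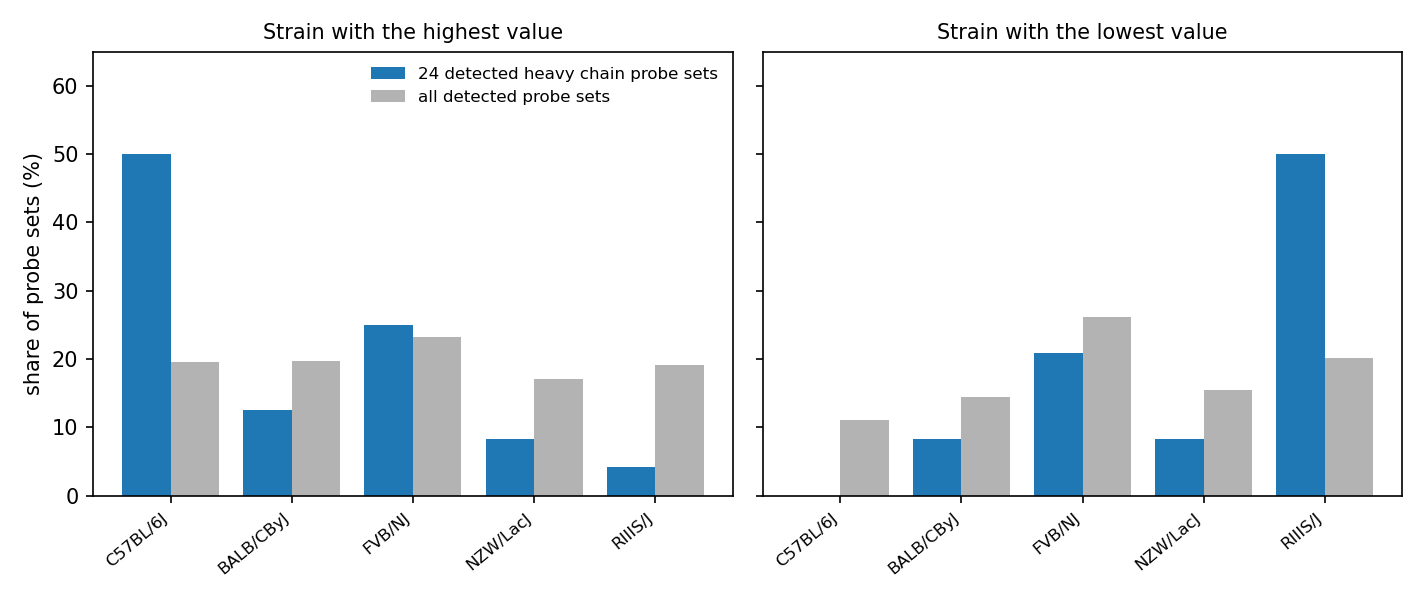
Share of probe sets, in percent, whose highest (left) or lowest (right) of 5 values lay in each strain; blue bars are the 24 detected heavy chain probe sets and grey bars all detected probe sets. The tallest blue bars are C57BL/6J on the left and RIIIS/J on the right, each with 12 of 24 probe sets.

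A strain was called higher or lower on a probe set when the next strain in order was 2-fold or more away, a call that also needs the other 4 strains on one side. Over the 30 detected members, 7 were called lower in RIIIS/J, against 1.61% of all detected probe sets. Those called higher numbered 3 in BALB/CByJ (0.767% of all), 3 in FVB/NJ (5.31%), 1 in C57BL/6J (0.524%), 0 in NZW/LacJ (0.826%) and 0 in RIIIS/J (1.43%). None was called lower in C57BL/6J (0.433% of all), BALB/CByJ (0.401%), FVB/NJ (0.497%) or NZW/LacJ (0.739%). The values of single arrays decide some of these counts. Without the C57BL/6J array 6 members were called higher in FVB/NJ (5.62% of all detected probe sets). Without the FVB/NJ array 3 were called higher in C57BL/6J (0.674%), and without the RIIIS/J array 2 were called lower in NZW/LacJ (1.54%). The highest strain was at least 2-fold above the lowest for 24 of the 30 members, against 30.2% of all detected probe sets. Exactly equal values on at least 2 arrays occurred in 8 of the 30 members, against 36.4% of all detected probe sets. Their cause was not tested.

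H2-K1, a classical heavy chain gene, was read by 4 probe sets of its own, by 1 shared with H2-D1 and by 1 shared with H2-Q5, which had another pattern and is given with the Q region. The most intense, 1425336_x_at, read 11912 in C57BL/6J, 6159.5 in BALB/CByJ, 9677 in FVB/NJ, 6585 in NZW/LacJ and 2602 in RIIIS/J. RIIIS/J lay 2.37-fold below the nearest strain, and C57BL/6J was highest by 1.23-fold over FVB/NJ. A second probe set, 1427746_x_at, gave the same order at 6382, 2853, 5065, 3705 and 1022. On it RIIIS/J was 2.79-fold below the nearest strain. The shared probe set 1424948_x_at of H2-K1 and H2-D1 read 5554, 2469.7, 4439, 3357 and 918, and its profile differed from that of 1427746_x_at by a root mean square of only 0.026 log2 over the 5 strains. The dim probe set 1450534_x_at read 122 in C57BL/6J, an identical 64.8 in BALB/CByJ, FVB/NJ and NZW/LacJ, and 14.8 in RIIIS/J, 4.38-fold below the nearest. That gap was -2.13 on the log2 scale and -1.24 with the floor raised to 27.4. All 4 of these were therefore called lower in RIIIS/J. The remaining H2-K1 probe set, 1451931_x_at, was highest in FVB/NJ instead, at 4997 in C57BL/6J, 4393 in BALB/CByJ, 8794 in FVB/NJ, 3829.8 in NZW/LacJ and 2941 in RIIIS/J. Its RIIIS/J value was 1.30-fold below the nearest strain and was not called. Its profile lay nearer to that of the leading H2-D1 probe set (root mean square difference 0.26 log2) than to that of the leading H2-K1 probe set (0.50).

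H2-D1, the other classical heavy chain gene, was read by 9 probe sets of its own, 8 of them detected, and these gave several different strain patterns. The most intense, 1425545_x_at, read 9243 in C57BL/6J, 8069.7 in BALB/CByJ, 15684 in FVB/NJ, 6789 in NZW/LacJ and 3395 in RIIIS/J. FVB/NJ was 1.70-fold above the nearest strain, and RIIIS/J lay just inside a ratio of 2 below NZW/LacJ and so was not called. The next, 1451784_x_at, had nearly the same profile (root mean square difference 0.026 log2), at 8411, 7269, 13701, 6198 and 2979.95, and RIIIS/J was called lower at 2.08-fold. These 2 probe sets lie on either side of the threshold and show the same pattern. The dimmer 1426324_at read 91.2 in C57BL/6J, 98.8 in BALB/CByJ, 483 in FVB/NJ, 91.2 in NZW/LacJ and 33.1 in RIIIS/J, and it was called both higher in FVB/NJ (4.89-fold) and lower in RIIIS/J (2.76-fold).

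Another H2-D1 probe set turned the order of RIIIS/J around. On 1451683_x_at RIIIS/J was highest, at 2993, followed by FVB/NJ at 2360.1, and C57BL/6J, BALB/CByJ and NZW/LacJ read 1255, 1289.6 and 1129. RIIIS/J was 1.27-fold above FVB/NJ, which is under the threshold. The dim 1450170_x_at was level in 4 strains, at 156 to 157, with RIIIS/J at 119.9. A low H2-D1 signal in RIIIS/J was thus a property of some probe sets and not of others. How far allele differences under the probes set these values was not tested.

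**Figure D2:**
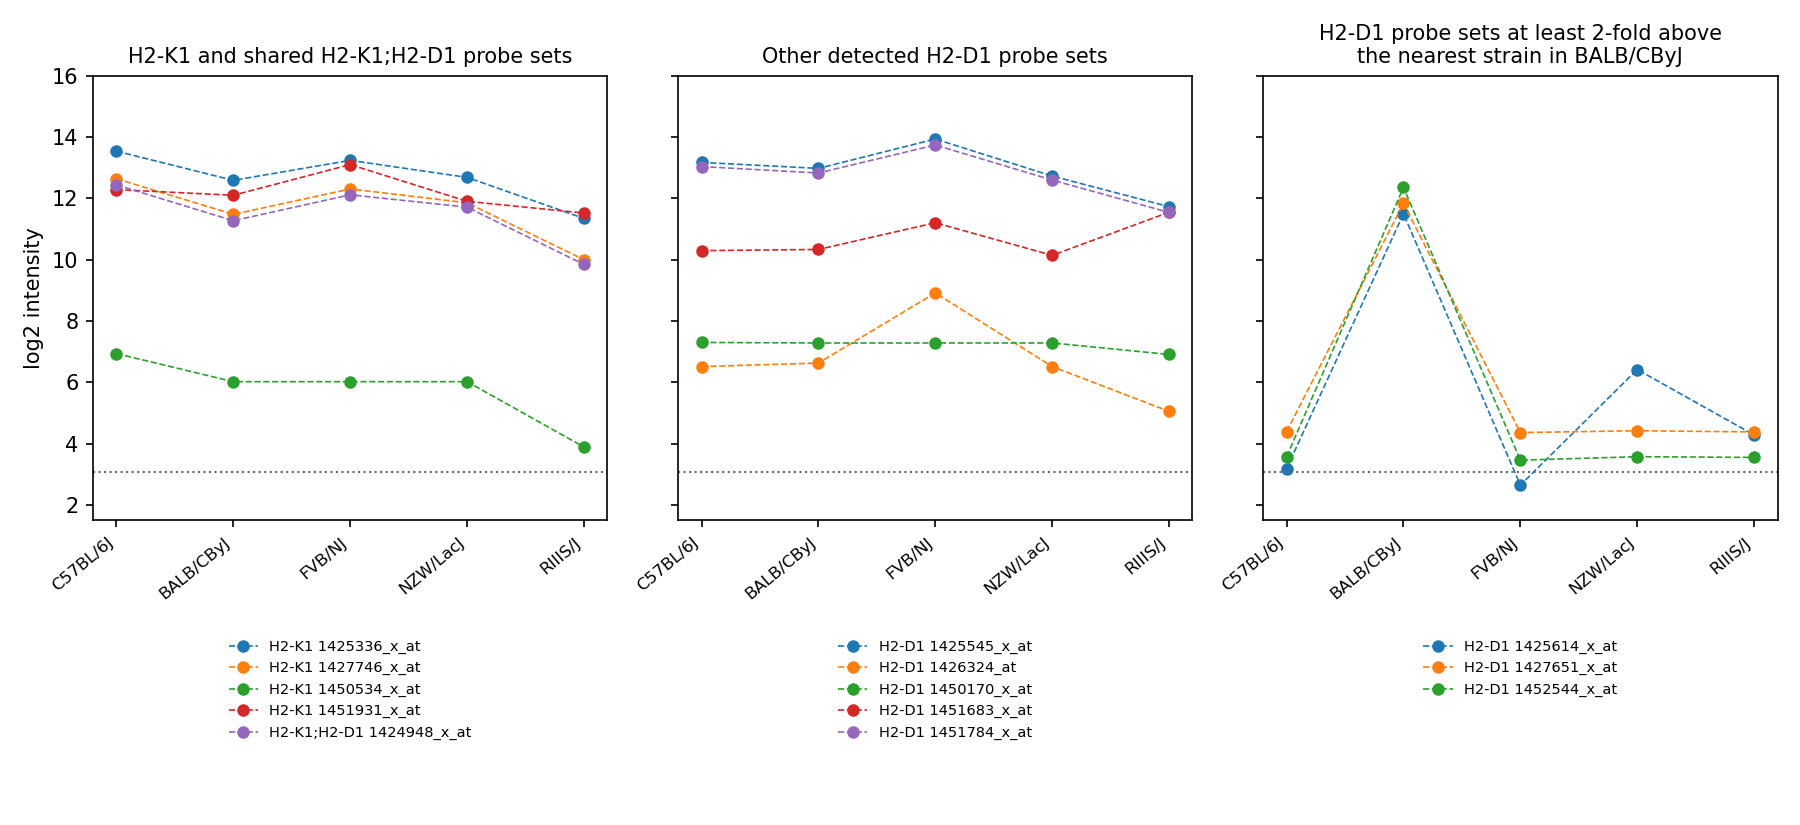
Log2 intensity of the detected H2-K1 and shared H2-K1;H2-D1 probe sets (left), of 5 H2-D1 probe sets (middle) and of the 3 H2-D1 probe sets called higher in BALB/CByJ (right) on 1 array per strain; dashed lines only join the points of a probe set, and the dotted line is the detection floor. RIIIS/J is the lowest point for 9 of the 10 probe sets of the left and middle panels, and 1451683_x_at is the exception, whereas the right panel shows a single high strain.

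A further 3 probe sets annotated to H2-D1 had high signal in BALB/CByJ alone. The most intense, 1452544_x_at, read 5244 in BALB/CByJ against 11.9 in C57BL/6J, 10.97 in FVB/NJ, 11.9 in NZW/LacJ and 11.7 in RIIIS/J, a ratio of 442 to the nearest (8.79 on the log2 scale, and 7.58 with the floor raised to 27.4). The second, 1427651_x_at, read 3651 in BALB/CByJ against 20.5 to 21.4 in the other strains, a ratio of 171. The third, 1425614_x_at, read 2895 in BALB/CByJ, 85.3 in NZW/LacJ, 19.4 in RIIIS/J, 9.08 in C57BL/6J and 6.24 in FVB/NJ, so that BALB/CByJ was 33.9-fold above NZW/LacJ (5.08 on the log2 scale, and 7.22 without the NZW/LacJ array). The other strains read alike on the first pair, while on the third NZW/LacJ was second to BALB/CByJ and FVB/NJ alone was under the floor. In contrast, on the leading H2-D1 probe sets BALB/CByJ was neither the highest nor the lowest strain. The annotation names no H2-L probe set, and whether these 3 read an H2-L or another d transcript was not tested.

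H2-Q10, the secreted liver heavy chain, was read by 1 probe set of its own, 1425137_a_at, at 23099 in C57BL/6J, 12993 in BALB/CByJ, 13142 in FVB/NJ, 29015 in NZW/LacJ and 9009 in RIIIS/J. NZW/LacJ was highest, 1.26-fold above C57BL/6J, and RIIIS/J was lowest, 1.44-fold below BALB/CByJ. BALB/CByJ and FVB/NJ read almost alike. The highest and lowest strain differed by 3.22-fold, but none of the 5 was called apart.

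Probe sets for the other Q region genes gave other strain patterns than H2-Q10, with ranges from 1.19-fold on 1422348_at, shared with H2-D1, to at least 135-fold. The genes H2-Q6 to H2-Q9 encode the Qa-2 antigen, a nonclassical class I molecule. The probe set 1418536_at of H2-Q9 and H2-Q7 read 1136 in C57BL/6J, 67.2 in BALB/CByJ, 210.4 in FVB/NJ, 8.40 in NZW/LacJ and 6.79 in RIIIS/J. It was called higher in C57BL/6J at 5.4-fold above FVB/NJ (2.43 on the log2 scale, and 4.08 without the FVB/NJ array), and the last pair of strains was under the floor, so that C57BL/6J was at least 135-fold above them. The probe set 1431008_at of H2-Q6 and H2-Q8 read 422, 113, 383, 29.1 and 28.4 in the same order of strains. Here C57BL/6J and FVB/NJ were both high, and NZW/LacJ and RIIIS/J were again lowest and nearly equal. The third, 1451644_a_at of H2-Q6, H2-Q8 and H2-Q4, was dim and read 37.7 in C57BL/6J, 23.4 in FVB/NJ and 16.5 in NZW/LacJ, the lowest strain. The probe set 1451593_at of H2-Q5 and H2-K1 had a different pattern, with 224 in FVB/NJ, 22.6 in BALB/CByJ and values under the floor in the other 3, a ratio of 9.92 for FVB/NJ over BALB/CByJ (3.31 on the log2 scale, and 4.72 without the BALB/CByJ array). Its 2 genes cannot be separated, and C57BL/6J, the highest strain on 1425336_x_at of H2-K1, was under the floor on it.

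In the T region, H2-T23 encodes the heavy chain of Qa-1, a ligand of NK cell receptors. Its probe set 1449556_at, shared with H2-T-ps, read 6149.7 in C57BL/6J, 4412 in BALB/CByJ, 1774 in FVB/NJ, 5411 in NZW/LacJ and 2547 in RIIIS/J. FVB/NJ was lowest here, 1.44-fold below RIIIS/J, and the range was 3.47-fold. H2-T10 and H2-T22 encode class I chains that some gamma-delta T cells recognise. The probe set 1449875_s_at of H2-T9, H2-T22 and H2-T10 read 1796, 1304, 1118, 1764 and 778 in the same order of strains, with RIIIS/J 1.44-fold below FVB/NJ. C57BL/6J and NZW/LacJ were highest and nearly equal on it. None of these T region differences reached a call. The other probe set of these genes, 1439121_at, was level near the floor at 10.2 to 10.4.

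H2-Bl, a T region class I gene listed by RefSeq as a transcribed pseudogene, split the strains into groups of 2 and 3. On 1450531_at it read 612 in NZW/LacJ and 494 in RIIIS/J, and 75.6, 71.6 and 64.8 in C57BL/6J, BALB/CByJ and FVB/NJ. The range was 9.43-fold, and no strain was called because the high pair were close to each other. It was the only member with 1 symbol on which NZW/LacJ and RIIIS/J were both above the other 3 strains. The shared probe set 1447260_at of Gm38417, LOC547349 and H2-Bl gave no such split: it read 50.6 in FVB/NJ and was under the floor elsewhere, at least 6.02-fold lower, a call lost with the floor raised to 27.4 (0.89 on the log2 scale). The remaining shared probe set, 1422348_at of Gm38417, H2-Q2 and H2-D1, was level at 11.5 to 13.7.

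**Figure D3:**
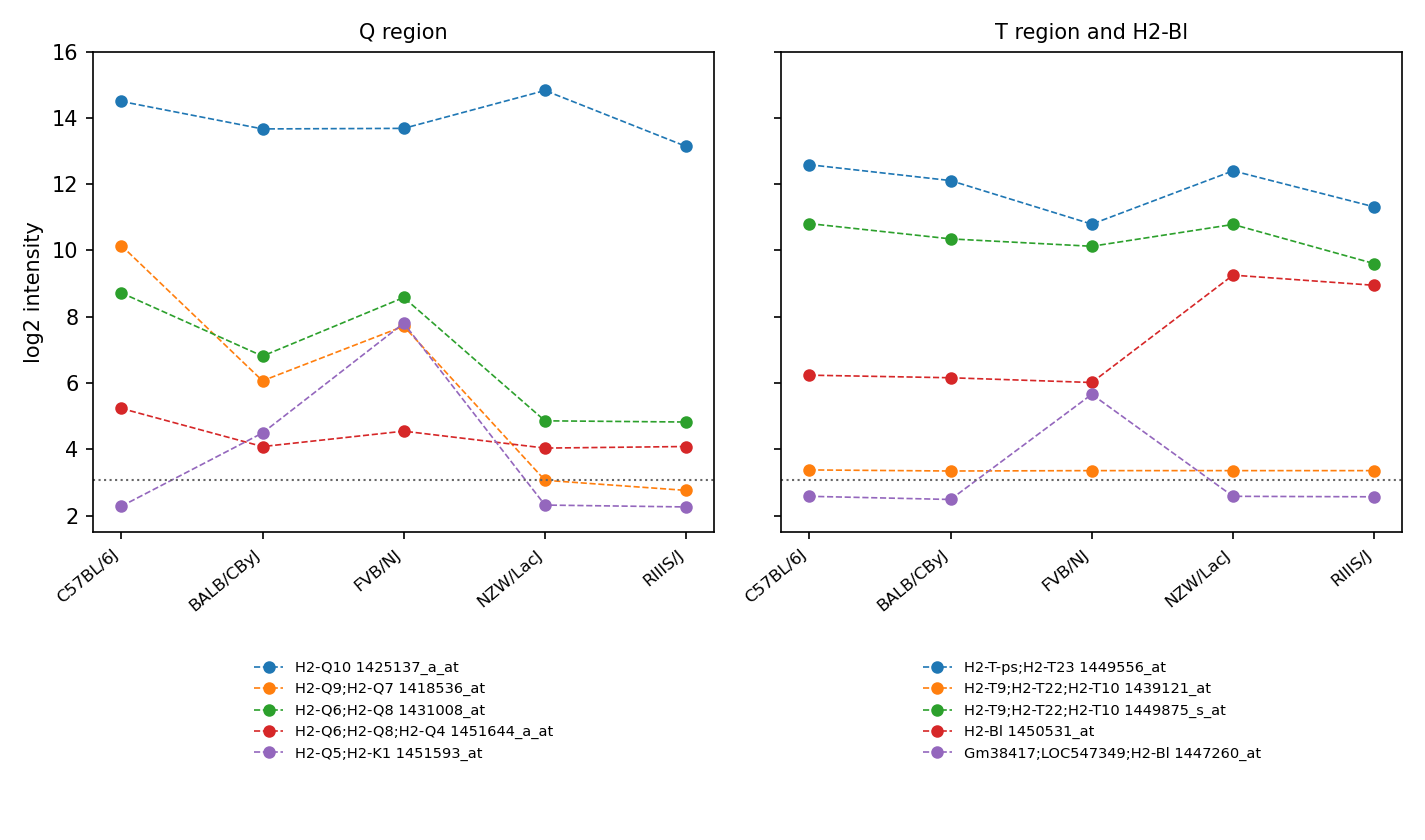
Log2 intensity of the Q region probe sets, including the shared H2-Q5;H2-K1 probe set (left), and of T region and H2-Bl probe sets (right) on 1 array per strain; dashed lines join the points of a probe set and the dotted line is the detection floor. The H2-Q9;H2-Q7 probe set drops to the floor in NZW/LacJ and RIIIS/J, where H2-Bl 1450531_at is highest.

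Upstream sequence of the leading heavy chain genes and of B2m is shown because H2-K1, H2-D1 and H2-Q10 differed in their order of strains while B2m was level. RefSeq promoter windows were found for 7 of the 10 genes, with 2 windows for H2-K1. The letters below are the 250 bases before the first listed start in GRCm38.p6, the C57BL/6J genome, so they say nothing of the sequence in the other strains. Capitals mark matches, on either strand, to the motifs searched.
H2-K1, chr17:34000348-34000597, minus strand: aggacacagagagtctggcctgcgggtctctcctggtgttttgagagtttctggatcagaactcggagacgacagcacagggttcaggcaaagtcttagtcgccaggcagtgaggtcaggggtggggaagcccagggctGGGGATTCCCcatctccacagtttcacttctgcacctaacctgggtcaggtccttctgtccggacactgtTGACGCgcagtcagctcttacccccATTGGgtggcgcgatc
H2-D1, chr17:35262844-35263093, plus strand: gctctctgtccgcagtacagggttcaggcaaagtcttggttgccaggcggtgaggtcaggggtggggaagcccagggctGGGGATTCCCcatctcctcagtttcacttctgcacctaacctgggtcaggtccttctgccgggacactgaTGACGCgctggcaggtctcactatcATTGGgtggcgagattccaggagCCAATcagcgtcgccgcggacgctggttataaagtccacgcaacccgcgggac
H2-Q10, chr17:35469839-35470088, plus strand: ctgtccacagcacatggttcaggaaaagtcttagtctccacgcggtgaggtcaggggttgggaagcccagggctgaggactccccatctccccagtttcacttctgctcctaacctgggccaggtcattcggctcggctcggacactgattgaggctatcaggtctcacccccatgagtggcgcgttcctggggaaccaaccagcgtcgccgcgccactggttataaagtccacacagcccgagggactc
B2m, chr2:122147437-122147686, plus strand: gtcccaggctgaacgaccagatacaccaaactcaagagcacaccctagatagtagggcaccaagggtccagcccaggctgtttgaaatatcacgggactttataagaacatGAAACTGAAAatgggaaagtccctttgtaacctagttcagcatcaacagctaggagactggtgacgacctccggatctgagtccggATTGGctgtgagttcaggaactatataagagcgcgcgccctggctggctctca

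The H2-K1 and H2-D1 windows each held the kappa B motif of enhancer A, spelled GGGGA directly followed by TTCCC, which 0.0852% of all 32851 promoter windows of this length hold. Both also held TGACGC, the X2 box and CRE half-site (6.12% of all windows), and CCAAT or its reverse complement, the Y box (33.8%). H2-Q10 held none of these 3 matches. At the bases aligned with the kappa B motif of H2-K1 and H2-D1, counted from 1 at its 5' end, H2-Q10 differed by G2A and T6C. Over aligned bases the H2-Q10 window was 85.9% identical to that of H2-D1 (241 bases) and 88.5% identical to that of H2-K1 (182 bases). The B2m window held CCAAT and the interferon response core, spelled GAAA, any 2 bases, GAAA (2.98% of all windows), as did that of H2-T23. The STAT motif, spelled TTCC, any base, GGAA, was in none of the 8 member windows and in 0.913% of all. None of the matches overlapped another. A match is a description of the letters and not a shown binding site.

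B2m, which encodes the light chain shared by the class I heavy chains, was level over the strains on both of its probe sets. On 1449289_a_at it read 31523 in C57BL/6J, an identical 31523 in BALB/CByJ, 31274 in FVB/NJ, 35819 in NZW/LacJ and 29568 in RIIIS/J. On 1452428_a_at it read 23671, 22713, 23605, 26310.4 and 20658. NZW/LacJ was highest and RIIIS/J lowest on both, and the whole range was 1.21-fold and 1.27-fold. The profiles of these 2 probe sets differed by a root mean square of 0.041 log2, though BALB/CByJ and FVB/NJ, close on both, changed places.

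Tap1, a subunit of the peptide transporter, was read above the floor by 1 of its 4 probe sets. On 1416016_at it read 86.8 in C57BL/6J, 48.8 in BALB/CByJ, 71.9 in FVB/NJ, 49.7 in NZW/LacJ and 30.3 in RIIIS/J. This is also the order of the leading H2-K1 probe set, and the profiles differed by 0.25 log2 (root mean square). Tap2, the partner subunit, had another order on 1453913_a_at: it read 52.9, 103, 142, 68.6 and 53.4, with FVB/NJ highest and C57BL/6J and RIIIS/J lowest. Neither gene was called apart in a strain, with ranges of 2.86-fold and 2.69-fold.

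Tapbp, the gene of tapasin, which holds empty class I molecules at the transporter, gave a small range on its intense probe set and a large one on its dim probe set. On 1421812_at it read 1435 in C57BL/6J, 1506 in BALB/CByJ, 1511 in FVB/NJ, 1171 in NZW/LacJ and 987 in RIIIS/J, a range of 1.53-fold. On 1450378_at it read 96.1, 109.8, 87.2, 87.2 and 23.3, and RIIIS/J was called lower at 3.74-fold below the nearest strain. RIIIS/J was lowest on both, but by 1.19-fold on the first. The sizes do not match, and the cause was not tested.

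**Figure D4:**
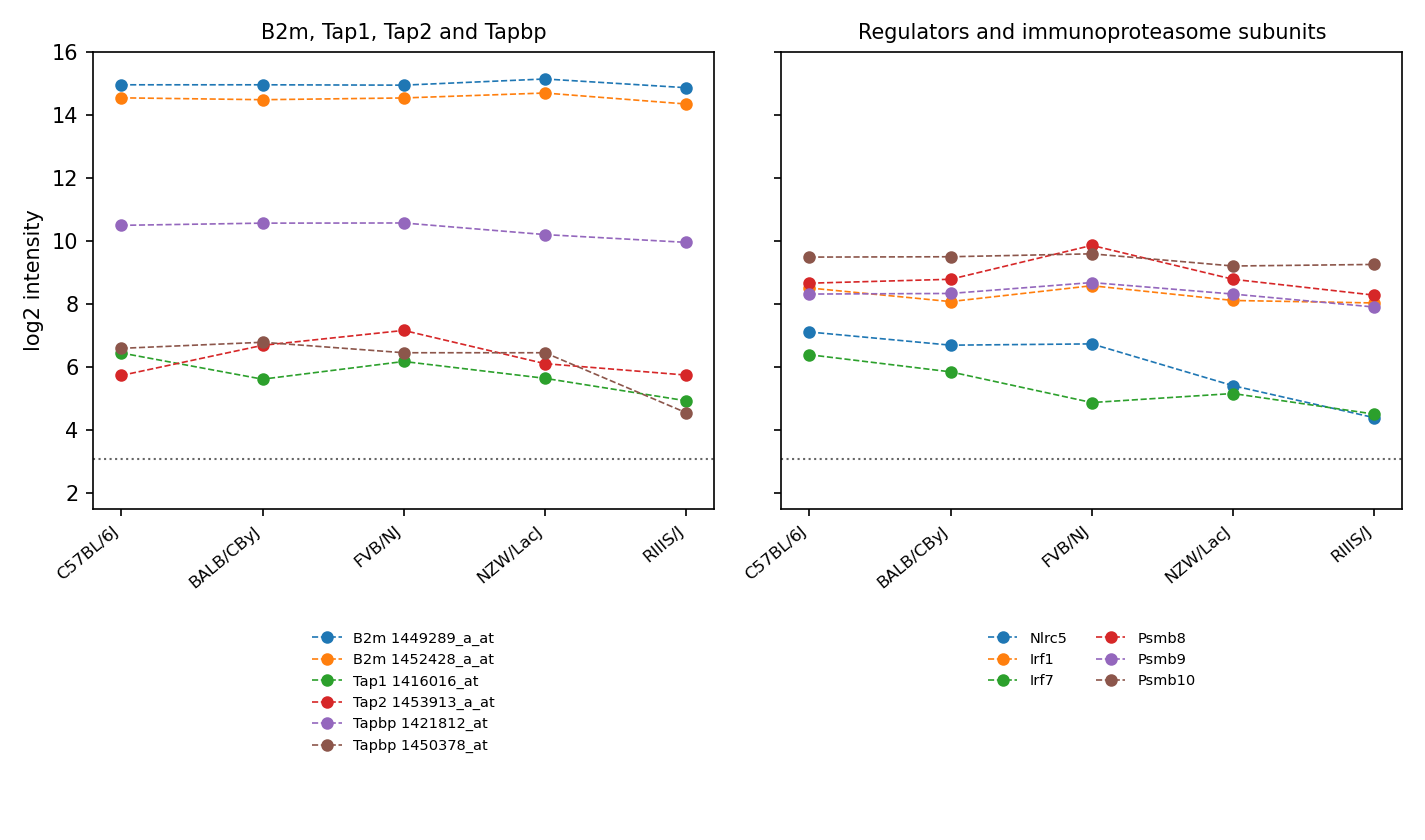
Log2 intensity of B2m, Tap1, Tap2 and Tapbp probe sets (left) and of class I regulators and immunoproteasome subunits, each by its most intense probe set (right), on 1 array per strain; dashed lines join the points of a probe set or gene and the dotted line is the detection floor. B2m is flat, Tapbp 1450378_at is lowest in RIIIS/J, and Nlrc5 reads 42.3 in NZW/LacJ and 20.9 in RIIIS/J.

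Genes that act around class I were described by their most intense probe set with 1 gene. The peptide loading and editing list had 8 of 8 genes detected, the members Tap1, Tap2 and Tapbp among them, and none called apart. Its median difference in RIIIS/J was -0.59 on the log2 scale, against -0.024 over all 11920 detected genes. Of the 8 genes, 4 were lowest there, where 22.5% of all detected genes were. Pdia3, a disulfide isomerase of the loading complex, read 5917 in C57BL/6J, 6225 in BALB/CByJ, 6318 in FVB/NJ, 6781 in NZW/LacJ and 3726 in RIIIS/J. Tapbpl, which encodes a tapasin relative, read 90.0 to 104 in 4 strains and 59.9 in RIIIS/J. The chaperones Calr (11953 to 15888) and Canx (7700.1 to 10174), and Erap1 (376 to 404), which trims peptides, were close over the strains.

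Of the immunoproteasome and its activator, 4 of 5 genes had a probe set with 1 gene and all 4 were detected. Psmb8, a catalytic subunit induced by interferon gamma, read 924 in FVB/NJ against 309 to 438 and was the 1 gene called higher there (2.11-fold), where 5.98% of all detected genes were. Psmb9 read 408 in FVB/NJ, 317 to 321 in C57BL/6J, BALB/CByJ and NZW/LacJ, and 238 in RIIIS/J. Psmb10 (587 to 767) and Psme1 (1568 to 1783) varied less. The constitutive counterparts Psmb5, Psmb6 and Psmb7 were lowest in FVB/NJ in 3 of 3 cases, where 26.3% of all detected genes were. Psmb5 read 2194 there against 3062 to 3899.7, and none of the 3 was called. Summed intensities of B cell and of T and NK cell markers were also high in FVB/NJ, as given above. So were those of macrophages (5452 against 2379 to 4629.7) and of stellate cells and fibroblasts (3115 against 1127 to 2145). Slc4a1, the 1 detected erythroid marker, was high there too. Clec4f and Cd5l were instead highest in NZW/LacJ, Adgre1 in C57BL/6J, and Reln and Col1a1 in BALB/CByJ. The part of these cell types in the Psmb8, H2-D1 and Tap2 values was not tested.

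Among 20 class I regulators, 17 were detected. Nlrc5, the transactivator of class I genes, read 138 in C57BL/6J, 103 in BALB/CByJ, 106 in FVB/NJ, 42.3 in NZW/LacJ and 20.9 in RIIIS/J. It was the 1 regulator called lower in RIIIS/J (2.02-fold below the nearest), where 1.72% of all detected genes were. Its RIIIS/J value was the lowest, like that of H2-K1, but NZW/LacJ was also low on Nlrc5. Irf8, an interferon regulatory factor of myeloid and B cells, was called higher in FVB/NJ (5.98% of all detected genes were) at 329.6 against 30.6 to 32.9. Ciita, the class II transactivator, read 20.8 in FVB/NJ and was under the floor elsewhere, at least 2.48-fold lower. Irf1 (260.5 to 380.4), Irf2 (210.5 to 481), Irf9 (96.3 to 160.1) and Rela (456 to 635) were not called, and Irf7 ran from 83.5 in C57BL/6J to 22.6 in RIIIS/J without a call. Over the list the median difference in RIIIS/J was -0.29.

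Of 9 further H2 class I heavy chain genes with a probe set of 1 gene, 7 were detected. H2-M3, which presents formylated peptides, was called higher in FVB/NJ (5.98% of all detected genes were), at 72.5 against 27.5 to 29.4. H2-Q5, a transcribed pseudogene in RefSeq, read 109.7 in C57BL/6J, 63.2 in BALB/CByJ, 38.1 in FVB/NJ, 132 in NZW/LacJ and 51.5 in RIIIS/J on its most intense probe set. On its other probe set it read 82.6 in NZW/LacJ and was under the floor in each of the other strains, at least 9.81-fold lower. H2-T24 read 26.3 in BALB/CByJ against 14.0 to 15.5. H2-T18, H2-Q2, H2-M9 and H2-M10.1 were within 1.07-fold to 1.66-fold over the strains, most of them near the floor.

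Of 12 class I-like genes outside H2, 7 were detected and none was called apart. Cd1d1, which presents lipids to NKT cells, read 15538 in C57BL/6J, 13098 in BALB/CByJ, 13461 in FVB/NJ, 11910.1 in NZW/LacJ and 6827 in RIIIS/J, 1.74-fold below the nearest. Hfe, an iron regulator with a class I fold, was highest in RIIIS/J instead, at 1308 against 769.5 to 1300.5. Azgp1 read 18412 to 27073 and Fcgrt, the neonatal Fc receptor, 971 to 1512. Of the receptors for class I, 11 of 25 genes had a probe set with 1 gene and 8 were detected. Klrd1, an NK cell receptor chain that binds Qa-1, read 30.2 in FVB/NJ and was under the floor elsewhere, at least 3.59-fold lower. Cd8a was level at 14.1 to 14.2.

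Other genes of the H2 region, taken after the member values were seen from the order of genes between Tapbp and H2-M2, were set beside the members. Of 105 such genes outside class I, class II and the proteasome, 75 were detected, and 5 were called lower in RIIIS/J, namely Stk19, Ehmt2, Neu1, Hspa1b and Trim39 (1.72% of all detected genes were). Their median difference in RIIIS/J was -0.12, and 24 of the 75 were lowest there, where 22.5% of all detected genes were. In FVB/NJ 9 of the 75 were called higher (5.98% of all detected genes), with the largest gaps for Ltb and Gpsm3, and in BALB/CByJ Apom was called lower (2.09-fold). Markers of other cells also differed in RIIIS/J: the 8 Kupffer cell and macrophage markers summed to 2379 there against 2578 to 5452, and 5 of the 8 were lowest there. The stellate cell and fibroblast markers summed to 1127 in RIIIS/J against 1314 to 3115, with 3 of the 4 detected lowest there. Of the 7 endothelial markers only 2 were lowest there, and no marker of these lists was called lower in RIIIS/J. The endothelial sum was 1999 in RIIIS/J against 2211 to 2500.2, with Clec4g alone at 1255 in RIIIS/J. In contrast, the 6 hepatocyte markers summed to 250970.0 against 222451 to 237886. Their part in the low class I values was not tested.

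The genes most like each member were taken as the 3 with the smallest root mean square difference of log2 profiles over the 5 strains, among 3167 genes above the floor on all arrays with a range of at least 2-fold. For H2-K1 they were Slc12a7 (0.18), Chd3 (0.19) and Npr2 (0.20), and for H2-D1 Depp1, L3mbtl3 and Zcchc7 (0.11 to 0.12). For H2-Q10 the nearest was Riok2 (0.10), which read 589 in C57BL/6J, 280 in BALB/CByJ, 305 in FVB/NJ, 692 in NZW/LacJ and 238 in RIIIS/J. Enpp3 and Cep85 followed at 0.23. Tap1 was nearest to Arap1 (0.086), Calcoco1 (0.14) and Oga (0.16), and Tap2 to Ifngr1 (0.095), Nop56 (0.095) and Abhd17b (0.10). H2-Bl had no close match: Gstm7, at 4562 in NZW/LacJ and 5197 in RIIIS/J against 633 to 1060 elsewhere, stood at 0.35, and Orm2 and Ugt2b37 at 0.44. With 5 points a profile, this likeness is a description only. B2m and Tapbp were left out by their narrow range, and H2-T23 and H2-T10 because they have no probe set of their own.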

How the data were processed

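Liver RNA of 5 strains was measured on Affymetrix arrays with 1 array per strain. The deposited values are intensities on a linear scale, which the authors obtained using GCRMA and the scanner program GCOS, per the submitters' processing notes. Program versions and settings, array batches and a genome build are not given in the sources used here. Gene symbols came from the platform annotation, in which 34945 probe sets had 1 gene, 932 several and 9160 none. The 64 manufacturer controls were left out.

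Intensities were raised to the floor, converted to log2 and compared between strains with a 2-fold threshold against the nearest strain. No test was run, and precision is limited by the single array of each strain. A gene took its most intense probe set with 1 gene. Every member probe set was reported, and genes of the lists were named where called apart, up to 8 a list, with some uncalled genes given as ranges and chosen after their values were seen. Of the other H2 region genes, those called higher in FVB/NJ were named only for the largest gaps. The members and lists were chosen with earlier results of these data known, and the list of other H2 region genes was chosen after seeing the data. Names and gene order came from RefSeq (GRCm38.p6). Promoter windows of 250 bases were searched for 5 motifs on both strands and aligned pairwise. The alternatives were other floors, quantile and loess scaling, a 4-fold threshold, fewer probe sets, the median of the other strains, and leaving out each array; leaving out arrays other than FVB/NJ for the counts was added after seeing the data. The calling step was tested on simulated data. Python 3.11.15, numpy 2.4.6, pandas 2.3.3, statsmodels 0.14.6 and matplotlib 3.10.9 were used.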

Additional observations from a re-analysis of the deposited data

How the results depend on the processing

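No paired analysis was possible because no strain had a second array. Of 132 recomputed counts of members called apart or past a 2-fold range, 107 stayed within 1.5 times the reported count. Counts of 0 that stayed at 0 are among these 107, so the number says little of the counts above 0. The 7 members called lower in RIIIS/J numbered 7 or 8 under both other floors, quantile and loess scaling, 6 without probe sets of several genes, 2 without _s_at, _x_at and _a_at probe sets (12 members detected) and 1 at 4-fold. Of all probe sets kept in each setting, 0.93% to 1.61% were called lower in RIIIS/J, and 0.322% at 4-fold. Without _s_at, _x_at and _a_at probe sets the BALB/CByJ count fell to 0 (0.788% of all detected probe sets). The H2-D1 probe sets concerned end in _x_at. The range count fell to 9 of the 12 members left (30.6% of all). Without probe sets of several genes the counts called higher were 0 in C57BL/6J (0.514% of all) and 1 in FVB/NJ (5.3%). The median of the other strains is a looser rule. Against it, members called higher were 3 in C57BL/6J (1.68% of all detected probe sets) and 4 in BALB/CByJ (2.36%). They were 9 in FVB/NJ (7.43%), 3 in NZW/LacJ (2.48%) and 2 in RIIIS/J (3.46%). Called lower were 10 in RIIIS/J (4.0%), 3 in FVB/NJ (1.83%), 2 in NZW/LacJ (2.6%), 2 in C57BL/6J (1.54%) and 1 in BALB/CByJ (1.63%).

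With each array left out in turn, 1 to 3 members were called higher in C57BL/6J (0.619% to 0.749% of all detected probe sets). The counts ran from 3 to 4 in BALB/CByJ (0.88% to 1.11%) and 3 to 6 in FVB/NJ (5.51% to 5.81%). They ran from 0 to 1 in NZW/LacJ (0.927% to 1.45%) and 0 to 1 in RIIIS/J (1.58% to 2.12%). Those called lower numbered 7 to 10 in RIIIS/J (1.76% to 2.65%) and 0 to 2 in NZW/LacJ (0.876% to 1.54%). They numbered 0 to 1 in C57BL/6J (0.558% to 0.665%), 0 to 1 in FVB/NJ (0.596% to 0.701%) and 0 in BALB/CByJ (0.513% to 0.637%). The range count ran from 19 to 24 (21.0% to 27.1%). Apart from small floor shifts, leaving out another array can only keep or raise a count of calls. The lower ends of these counts therefore could not fall below the reported ones. Of 112 recomputed gaps of single members under other floors, scalings and arrays, 111 kept their direction and their side of the 2-fold threshold. The exception was the FVB/NJ gap of 1447260_at, at 0.89 when the floor was raised to 27.4. All were gaps already past the threshold in the main setting. Apart from small floor shifts, removing the floor or another array could only keep or widen a gap. Those settings therefore could not overturn one. RIIIS/J minus the lowest other strain, negative on the leading H2-D1 probe set, was reversed to 1.41 on the log2 scale on 1451683_x_at. It was 0.09 and 0.020 on 1452544_x_at and 1427651_x_at, where all strains but BALB/CByJ read alike. On 1425614_x_at it was at least 1.20, as FVB/NJ was under the floor. The cause of these differences between probe sets was not tested. Values moved by over 1.5 times by a higher floor or by 1 array stand beside the results. Signals near the floor, as on 1439121_at, cannot show a difference between strains.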
